A study of Mus musculus with 2 samples.

Results

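Laminin-332 and the hemidesmosome anchor basal keratinocytes of the skin to the basement membrane. Here 9 genes of that system were followed across 2 single-cell libraries of chemically induced mouse squamous cell carcinomas, by symbol among the 32285 genes of the files. They were 2 laminin chain genes (Lama3 and Lamb3), 6 genes of hemidesmosome parts (Itga6, Itgb4, Col17a1, Dst, Plec and Cd151) and Itga3, whose product is a laminin receptor outside the hemidesmosome. All 9 symbols matched 1 gene each.

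The Eed iKO-D library came from tumours of the dorsal skin of K14CrERT2;Eed flox/flox mice that were given hydroxyl-tamoxifen at 20 mg/ml for 4 days from postnatal day 50 and painted weekly with DMBA, a carcinogen, for up to 20 weeks. The Ctrl-D library came from such tumours of Eed flox/flox mice given ethanol in place of hydroxyl-tamoxifen, with the same DMBA course. All mice were 5 months old, carried the floxed Eed alleles and received DMBA. Eed encodes a core subunit of Polycomb repressive complex 2, which methylates histone H3 on lysine 27, and the K14 promoter drives the Cre in basal keratinocytes. The labels call the cells epidermal cancer cells, but both libraries also held immune and stromal types by their markers. Genotype and hydroxyl-tamoxifen differed between the groups at once and cannot be told apart. Each group was a single library (1 each), so differences between them are given without a p-value or a check over replicates. The 95% intervals are exact and cover only the error of counting.

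There were 22259 barcodes and 289511009 UMIs in Eed iKO-D, and 8039 barcodes and 120500892 UMIs in Ctrl-D, and 49 barcode sequences occurred in both. After filtering, 3209 Eed iKO-D cells and 4807 Ctrl-D cells were epithelial-like by marker genes, with medians of 36589 UMIs per cell in Eed iKO-D and 15909 in Ctrl-D. Cells with Xist UMIs and cells with Y-linked UMIs occurred in each library, and the number of animals behind each was not given. Another 12683 Eed iKO-D cells and 739 Ctrl-D cells stayed unnamed, of which 11803 Eed iKO-D and 13 Ctrl-D cells lay in 5 clusters set aside for Gm42418, a transcript that overlaps ribosomal RNA and serves as a sign of RNA quality. Among these, cluster 1 with 998 Eed iKO-D cells, had epithelial markers as its highest score. Gm42418 took 3.69% of the UMIs of epithelial-like cells in Eed iKO-D and 0.519% in Ctrl-D, and it was higher in Eed iKO-D in all 6 clusters compared below, at 3.01% to 6.54% in Eed iKO-D and 0.435% to 1.75% in Ctrl-D. Its part in the differences between libraries was not tested. Eed itself stood at 47.4 CPM (UMIs of a gene scaled to all UMIs of the cell group) in Eed iKO-D epithelial-like cells and 53.9 CPM in Ctrl-D ones, but the deleted exons were not given in the labels and 3′ reads outside the deleted part check nothing.

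As background, the α3 chain encoded by Lama3 and the β3 chain encoded by Lamb3 assemble into the secreted laminin trimer of the epidermal basement membrane. The α6β4 integrin, from Itga6 and Itgb4, binds that laminin from the basal cell side. Collagen XVII, from Col17a1, spans the membrane beside it, and plectin (Plec) and the epithelial form of dystonin (Dst, also called BPAG1e) tie both to keratin filaments. Cd151 is a tetraspanin that associates with laminin-binding integrins, and Itga3 pairs with the β1 chain in cell contacts that are not hemidesmosomes. Col17a1, α6β4 integrin and laminin-332 are lost or altered in forms of junctional epidermolysis bullosa, a blistering disease.

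By GENCODE vM21 on mouse build GRCm38, Lamb3 (chr1:193207699-193343878) and Dst (chr1:33908225-34308661) lie on the plus strand of chromosome 1, Itga6 on chromosome 2, Itgb4 and Itga3 on chromosome 11, Plec on chromosome 15, Col17a1 on chromosome 19 and Cd151 on chromosome 7. The longest Lamb3 model overlaps Hsd11b1 and G0s2 on the opposite strand. Gene-level counts pool isoforms, so the epithelial and other forms of Dst and Plec cannot be told apart.

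From RefSeq's GRCm38.p6 promoter table (250 bases before to 50 after a start), 9 starts for 5 of the 9 genes were taken: Lamb3, Itga3, Col17a1, Dst and Cd151. Shown are Lamb3 and Col17a1, which in endothelial-like cells stood near the free RNA gauge given further on, then Dst with both its starts and Cd151, which stood far above it. Capitals mark the AP-1 element TGANTCA, the GC box GGGCGG and the TATA box TATAAA on either strand.
Lamb3 start 1 (chr1:193301744-193302043, plus strand): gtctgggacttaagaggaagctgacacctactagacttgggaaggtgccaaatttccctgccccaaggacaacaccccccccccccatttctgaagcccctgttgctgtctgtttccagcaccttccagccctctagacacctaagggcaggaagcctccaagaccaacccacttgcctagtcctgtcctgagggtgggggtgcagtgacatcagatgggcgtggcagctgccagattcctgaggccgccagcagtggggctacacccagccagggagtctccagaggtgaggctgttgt
Col17a1 (chr19:47691993-47692292, minus strand): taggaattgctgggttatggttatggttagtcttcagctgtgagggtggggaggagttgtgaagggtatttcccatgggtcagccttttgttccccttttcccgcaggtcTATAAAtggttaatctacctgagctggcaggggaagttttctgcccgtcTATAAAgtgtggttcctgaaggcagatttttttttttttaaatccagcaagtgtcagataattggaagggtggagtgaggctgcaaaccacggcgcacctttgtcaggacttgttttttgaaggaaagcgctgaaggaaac
Dst start 1 (chr1:34011345-34011644, plus strand): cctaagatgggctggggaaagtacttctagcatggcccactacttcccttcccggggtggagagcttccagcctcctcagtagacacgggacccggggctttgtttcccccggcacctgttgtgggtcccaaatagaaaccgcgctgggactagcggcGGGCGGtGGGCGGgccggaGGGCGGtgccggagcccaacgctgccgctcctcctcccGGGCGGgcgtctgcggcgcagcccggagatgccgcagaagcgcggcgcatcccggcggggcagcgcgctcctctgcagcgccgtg
Dst start 2 (chr1:34160010-34160309, plus strand): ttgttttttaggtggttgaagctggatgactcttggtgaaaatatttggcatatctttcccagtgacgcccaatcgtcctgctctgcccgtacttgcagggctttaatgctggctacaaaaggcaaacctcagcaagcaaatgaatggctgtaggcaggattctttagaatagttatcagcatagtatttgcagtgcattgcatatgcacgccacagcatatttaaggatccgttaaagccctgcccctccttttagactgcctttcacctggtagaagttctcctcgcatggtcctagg
Cd151 start 1 (chr7:141467112-141467411, plus strand): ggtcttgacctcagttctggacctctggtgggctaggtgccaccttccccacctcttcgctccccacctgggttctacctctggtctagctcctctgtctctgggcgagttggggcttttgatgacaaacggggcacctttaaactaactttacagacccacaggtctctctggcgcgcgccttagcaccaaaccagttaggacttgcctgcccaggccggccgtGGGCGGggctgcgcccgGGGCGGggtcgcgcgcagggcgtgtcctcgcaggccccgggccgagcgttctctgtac
The first Dst start held 4 GC boxes and the first Cd151 start held 2, while neither the second Dst start, Lamb3 start 1 nor Col17a1 held any. Of the starts not shown, the second Lamb3 start and the second Cd151 start held 0 each, the first Itga3 start 3 and the second Itga3 start 1. A GC box was in 4 of the 9 and in 35.7% of all 32851 promoters of the table. A TATA box was found in Col17a1 alone among the 9, at 2 places, and in 13.6% of all promoters. An AP-1 element was found in 1 of the 9, the second Itga3 start, and in 7.81% of all. The E-box CANNTG, on either strand, was in 9 of 9 and in 72.3% of all. These letter matches are a description and not binding sites.

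The epithelial-like cells fell into 7 clusters, formed without the 9 genes, and 6 of them held at least 50 cells of each library. Cluster 5 was basal-like and led by Prl8a9, Pthlh and Nrg1, with 1683 Eed iKO-D cells and 123 Ctrl-D cells. Cluster 3 was basal-like and led by Tslp and Sostdc1 (384 Eed iKO-D and 149 Ctrl-D cells, with medians of 30453 and 4184 UMIs, the widest depth gap of these clusters). Cluster 11 was basal-like and led by Chil4 and Fcgbp (84 Eed iKO-D and 2299 Ctrl-D cells). Cluster 21, led by Krt79 and Krt15, was basal-like by a narrow lead in marker score over the next state (98 Eed iKO-D and 1161 Ctrl-D cells). Cluster 7 was suprabasal-like and led by Sprr2d, Sprr1a and Krt6b, a keratin of activated epidermis (864 Eed iKO-D and 117 Ctrl-D cells). Cluster 13 was suprabasal-like and led by Krt1 and Krt10 (85 Eed iKO-D and 802 Ctrl-D cells). The cornifying-like cluster 14 had 156 Ctrl-D cells and too few Eed iKO-D cells to compare.

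Cluster 5 held the highest level among the epithelial-like clusters for 8 of the 9 genes, and all 9 were lower in cornifying-like Ctrl-D cells than in Ctrl-D cells of cluster 5. Lama3 stood at 1308 CPM in Eed iKO-D cells of cluster 5 and 850 CPM in Ctrl-D cells of that cluster. In the Krt1-led cluster 13 its level was 117 CPM in Eed iKO-D and 83.3 CPM in Ctrl-D, and in cornifying-like Ctrl-D cells it was 9.88 CPM. Col17a1 stood in cluster 5 at 1291 CPM in Eed iKO-D and 991 CPM in Ctrl-D, in cluster 13 at 205 CPM in Eed iKO-D and 251 CPM in Ctrl-D, and at 45.0 CPM in cornifying-like Ctrl-D cells. Dst was the exception, with its highest keratinocyte level in the Eed iKO-D cells of cluster 21 (462 CPM, interval 432 to 494), above the 348 CPM of Eed iKO-D cluster 5. Cd151 varied less, with 66.1 CPM in Eed iKO-D and 66.8 CPM in Ctrl-D within cluster 5, and 38.6 CPM in Eed iKO-D and 36.2 CPM in Ctrl-D within cluster 13. Its intervals overlapped in cluster 5.

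**Figure D1:**
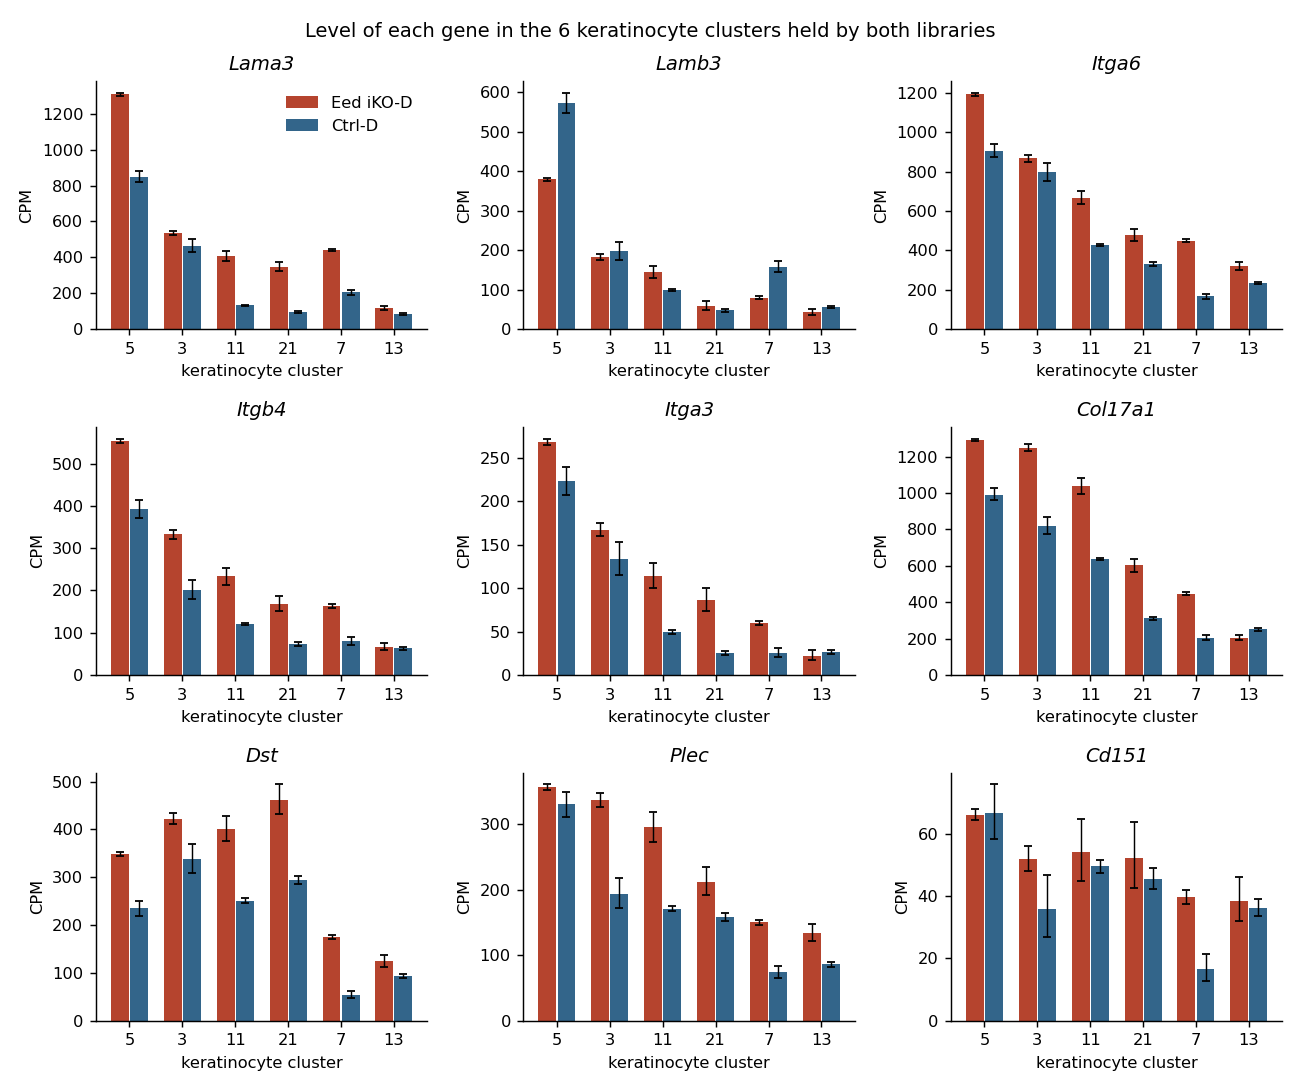
Level of each gene (y axis, CPM) in the 6 keratinocyte clusters held by both libraries (x axis; 5, 3 and 11 basal-like, 21 basal-like by a narrow lead, 7 and 13 suprabasal-like), Eed iKO-D in red and Ctrl-D in blue. Bars are 1 library each and error bars are 95% Poisson intervals; in cluster 5, Lama3 stands at 1308 CPM in Eed iKO-D and 850 CPM in Ctrl-D, and Lamb3 the other way at 379 CPM in Eed iKO-D and 573 CPM in Ctrl-D.

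Over the 13 library-by-cluster groups of epithelial-like cells, log2(CPM + 10) of Itgb4 and Itga3 correlated at 0.99, of Lama3 and Itgb4 at 0.97 and of Itga6 and Col17a1 at 0.97, while Lamb3 correlated with Dst at 0.48 and with Cd151 at 0.56. The groups share 2 libraries and their depth, so these are descriptions. The pair of Lamb3 and Dst had the lowest correlation of the 36 pairs of members.

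Over all epithelial-like cells, 7 of the 9 genes were at least 1.5 times higher in Eed iKO-D than in Ctrl-D, a size past which 42.1% of the 19487 measured genes lay, and 0 of the 9 were at least 1.5 times lower, against 15.6% of genes. The median gene was higher by 0.40 on the log2 scale, and relative to it 6 of the 9 passed 1.5 times, against 28.1% of genes. Lama3 averaged 966 CPM in Eed iKO-D and 147 CPM in Ctrl-D, a ratio of 6.58 (interval 6.46 to 6.70). Itga3 stood at 196 CPM in Eed iKO-D and 45.5 CPM in Ctrl-D (4.32-fold). Itgb4 stood at 415 CPM in Eed iKO-D and 106 CPM in Ctrl-D (3.90-fold).

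The other members differed less over the class. Lamb3 stood at 271 CPM in Eed iKO-D and 99.5 CPM in Ctrl-D (2.72-fold), Itga6 at 939 CPM in Eed iKO-D and 370 CPM in Ctrl-D (2.54-fold), and Col17a1 at 1037 CPM in Eed iKO-D and 474 CPM in Ctrl-D (2.19-fold). The direction of Lamb3 turned with each shared cluster given the same weight (0.785-fold), and Lamb3 was above 1 in 2 of the 6 shared clusters. Plec stood at 296 CPM in Eed iKO-D and 151 CPM in Ctrl-D (1.96-fold). Dst, at 1.46-fold, and Cd151, at 1.30-fold, did not reach 1.5. Krt14, the basal keratin, was nearly level over the class at 1.09-fold. Within each shared cluster it was lower in Eed iKO-D, from 0.656-fold in cluster 11 to 0.954-fold in cluster 3.

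The libraries mixed keratinocyte clusters in very different proportions. Cluster 5 made up 52.4% of Eed iKO-D epithelial-like cells and 2.56% of Ctrl-D ones, and it held 82.2% of the Lama3 UMIs of the Eed iKO-D class, against 22.6% of those of the Ctrl-D class. Within the shared clusters the ratios were smaller than over the class for most members. Lama3 ranged from 1.15 in cluster 3 to 3.70 in cluster 21, and Itga3 from 0.852 in cluster 13 to 3.40 in cluster 21. With each shared cluster given the same weight, 4 of the 9 remained at least 1.5 times higher, and without cluster 5, an alternative chosen after seeing the data, 4 did. The share of all genes past that size was not taken in either setting. The class level weights each cluster by its cells and their depth.

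**Figure D2:**
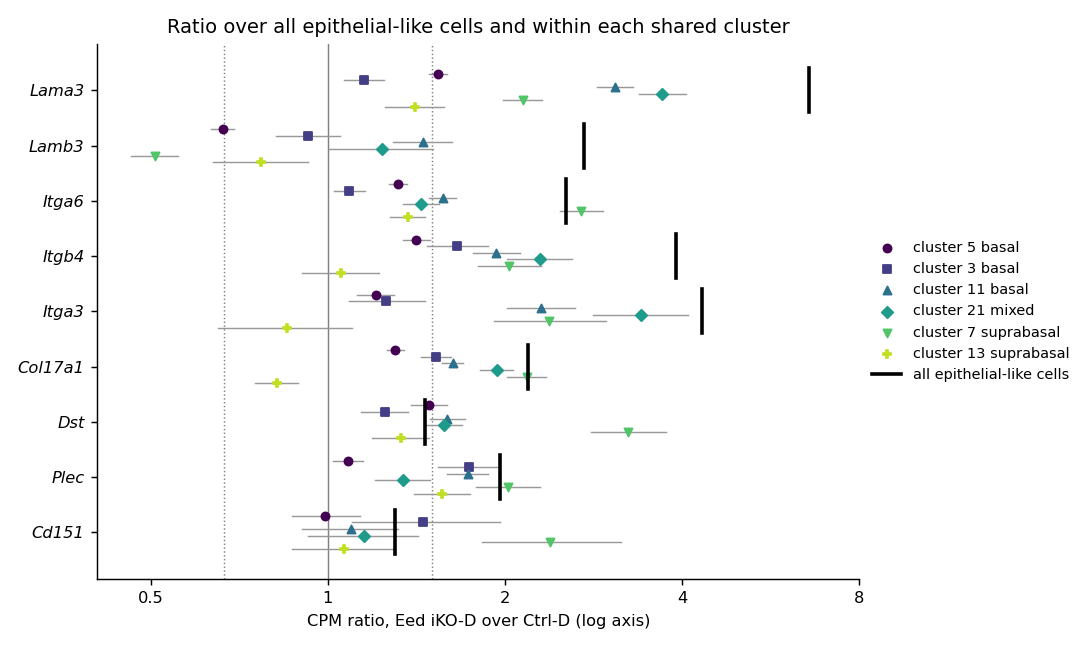
CPM ratio of Eed iKO-D over Ctrl-D (x axis, log scale) for each gene, over all epithelial-like cells (black bar) and within each shared cluster (points, with 95% intervals in grey); dotted lines mark 1.5 times either way. The class ratio of Lama3 (6.58), Itgb4 (3.90) and Lamb3 (2.72) lies above all 6 of their cluster ratios.

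Of 54 pairs of a member and a shared cluster, 25 were at least 1.5 times higher in Eed iKO-D and 2 at least 1.5 times lower. By cluster, the members higher were 8 of 9 in cluster 7, 7 in cluster 11, 5 in cluster 21, 3 in cluster 3, and 1 each in clusters 5 and 13. The share of all measured genes past that size was 60.9% in cluster 7, 30.3% in cluster 11, 27.4% in cluster 21, 16.9% in cluster 3, 44.9% in cluster 5 and 34.4% in cluster 13. On the log2 scale the median gene was itself higher by 0.84 in cluster 7, 0.40 in cluster 5, 0.32 in cluster 13, 0.27 in cluster 11 and 0.18 in cluster 21, and differed by -0.05 in cluster 3. Relative to the median gene 12 of the 54 pairs were at least 1.5 times higher, and with scaling by the median of ratios also 12. In cluster 7, relative to the median gene 2 of the 9 passed, against 34.5% of genes. In cluster 5 relative to the median gene 0 passed upward, against 30.8%, and in cluster 13 also 0, against 19.1%. In cluster 21 relative to the median gene 4 passed, against 19.4% of genes, in cluster 11 3, against 18.3%, and in cluster 3 also 3, against 18%.

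Both pairs that were lower were of Lamb3. Relative to the median gene there were 4 such pairs, Lamb3 in clusters 5, 7 and 13 (0.503, 0.283 and 0.617) and Col17a1 in cluster 13 (0.656). Of all genes, the share lower by that measure was 23.4% in cluster 5, 28.7% in cluster 7 and 25.4% in cluster 13, and, in the clusters without such a member, 11.2% in cluster 3, 26.4% in cluster 11 and 26.5% in cluster 21. Without that adjustment no member was 1.5 times lower in the other clusters, where 12.7% (cluster 3), 17.5% (cluster 11), 15.3% (cluster 13) and 20.7% (cluster 21) of genes were. In cluster 5 Lamb3 stood at 379 CPM in Eed iKO-D and 573 CPM in Ctrl-D cells, a ratio of 0.663 (interval 0.634 to 0.694), where 12.2% of genes were at least 1.5 times lower. In cluster 7 it stood at 80.0 CPM in Eed iKO-D and 158 CPM in Ctrl-D cells, a ratio of 0.507 (0.463 to 0.557), where 9.68% of genes were. Its highest cluster ratio was 1.45, in cluster 11. In cells with Xist UMIs and no Y-linked UMIs, an alternative chosen after seeing the data, the cluster 5 ratio was 0.689 and just missed 1.5 times lower, and the cluster 7 ratio was 1.02. The Ctrl-D cells of cluster 5 included 117 such cells and 0 with Y-linked UMIs alone, so no such comparison could be made in Y-linked cells of cluster 5. In cluster 7 Lamb3 stood at 95.7 CPM in Xist-only Eed iKO-D cells and 93.7 CPM in the 74 Xist-only Ctrl-D cells. It stood at 55.3 CPM in Y-linked-only Eed iKO-D cells and 292.5 CPM in the 18 Y-linked-only Ctrl-D cells, so the lower level there was not seen in Xist-only cells.

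In these same clusters Lama3 went the other way. In cluster 5 it was 1.54 times higher in Eed iKO-D, and in cluster 7 it stood at 440 CPM in Eed iKO-D and 205 CPM in Ctrl-D (2.14-fold). Relative to the median gene Lama3 was only 1.17-fold higher in cluster 5 and 1.19-fold in cluster 7. In cluster 11 it stood at 408 CPM in Eed iKO-D and 133 CPM in Ctrl-D (3.07-fold). It passed 1.5 times in 4 of the 6 clusters, and relative to the median gene in 2, clusters 11 and 21. The 2 chains of 1 protein could be set against each other within each cluster, where library scaling cancels. Since capture differs between genes, such a quotient was compared between libraries only. Lama3 had 345 UMIs per 100 Lamb3 UMIs in Eed iKO-D cells of cluster 5 (interval 341 to 349) and 149 in Ctrl-D cells (140 to 157). In cluster 7 it had 550 in Eed iKO-D (528 to 573) and 130 in Ctrl-D (116 to 146). The quotient was higher in Eed iKO-D in 6 of 6 shared clusters, from 1.25-fold in cluster 3 to 4.22-fold in cluster 7, and the intervals were apart in all 6.

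The direction did not depend on how clusters were drawn in the alternatives tried, all chosen after seeing the data. Lama3 per Lamb3 was higher in Eed iKO-D in 2 of 2 shared clusters at resolution 0.5, in 4 of 4 at resolution 2.0, in 5 of 5 with the members among the clustering genes, and in 4 of 4 in Xist-only cells.

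Lamb3 was also lower relative to the integrin gene Itgb4. Lamb3 had 68.5 UMIs per 100 Itgb4 UMIs in Eed iKO-D cells of cluster 5 and 146 in Ctrl-D cells, and 49.1 in Eed iKO-D and 196 in Ctrl-D cells of cluster 7. This quotient was lower in Eed iKO-D in 6 of 6 shared clusters, with intervals apart in 6. Itgb4 CPM was itself higher in Eed iKO-D in 6 of 6. In clusters 11 and 21 Lamb3 CPM was also higher in Eed iKO-D (1.45-fold and 1.24-fold), so the lower quotient there was not a lower Lamb3 level. Lama3 per Itgb4 was higher in Eed iKO-D in 5 of the 6, with intervals apart in 4 of these 5, and was lower in cluster 3 (161 UMIs per 100 in Eed iKO-D, 231 in Ctrl-D).

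**Figure D3:**
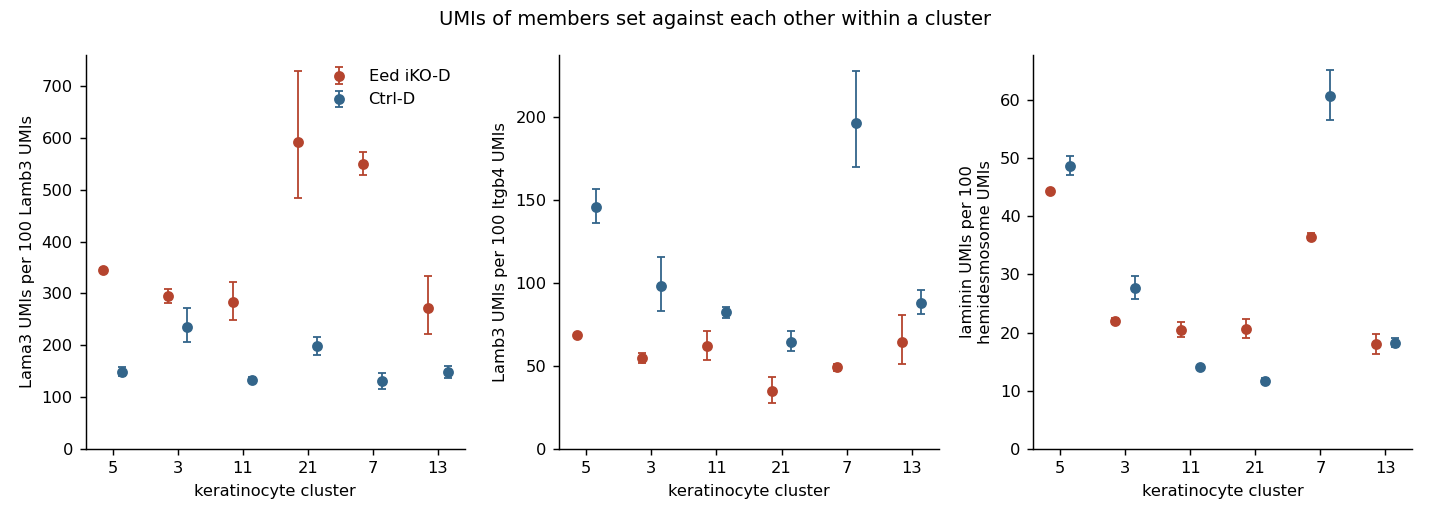
UMIs of Lama3 per 100 of Lamb3 (left), Lamb3 per 100 of Itgb4 (middle) and both laminin chains per 100 of the 6 hemidesmosome genes (right) in each shared keratinocyte cluster (x axis), Eed iKO-D in red and Ctrl-D in blue, with 95% binomial intervals. Red lies above blue in all 6 clusters on the left and below it in all 6 in the middle, while on the right the order changes between clusters.

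Summed, the laminin chains against the hemidesmosome parts differed in 1 direction over the class, while the direction was mixed within clusters. Over epithelial-like cells there were 40.5 laminin UMIs per 100 hemidesmosome UMIs in Eed iKO-D (40.3 to 40.7) and 18.2 in Ctrl-D (17.9 to 18.4), a 2.23-fold difference. Within clusters Eed iKO-D was lower in cluster 7, with 36.5 against 60.7 in Ctrl-D, in cluster 5, with 44.3 against 48.7 in Ctrl-D, and in cluster 3, with 22.0 against 27.7 in Ctrl-D. It was higher in cluster 11 (1.46-fold) and in cluster 21, with 20.6 against 11.7 in Ctrl-D. In cluster 13 the intervals overlapped (0.988-fold). With the CPM of the 6 shared clusters averaged at the same weight, the quotient of the 2 libraries was 0.928, so the class difference was not kept. Clusters with high CPM count for more in that average. The quotient followed the cluster more than the library: clusters 5 and 7 held the 2 highest values in each library.

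Of the hemidesmosome parts, Itgb4 was higher in Eed iKO-D in 6 of 6 shared clusters and past 1.5 times in 4 of them. It stood at 333 CPM in Eed iKO-D and 201 CPM in Ctrl-D cells of cluster 3 (1.66-fold) and at 168 CPM in Eed iKO-D and 73.5 CPM in Ctrl-D cells of cluster 21 (2.29-fold). Its integrin partner Itga6 was past 1.5 times in 2 of the 6, cluster 7 (449 CPM in Eed iKO-D, 167 CPM in Ctrl-D) and cluster 11 (669 CPM in Eed iKO-D, 427 CPM in Ctrl-D). Itga6 UMIs per 100 Itgb4 UMIs were higher in Eed iKO-D in 2 of the 6 clusters and lower with intervals apart in 3, so the 2 integrin chains kept no common quotient. Relative to the median gene Itgb4 passed 1.5 times in 3 of the 6 clusters and Itga6 in 1.

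Col17a1 was past 1.5 times in 4 of the 6 clusters, with 1248 CPM in Eed iKO-D and 818 CPM in Ctrl-D cells of cluster 3 (1.53-fold), and was lower in cluster 13 (0.818-fold). Relative to the median gene Col17a1 passed in 2 of the 6 and was 1.5 times lower in 1. Of the plakins, Plec was past 1.5 times in 4 of the 6 and Dst in 3, and each in 1 of the 6 relative to the median gene. The largest plakin ratio was that of Dst in cluster 7, with 176 CPM in Eed iKO-D and 54.4 CPM in Ctrl-D cells (3.23-fold, interval 2.80 to 3.76), or 1.80-fold relative to the median gene. Cd151 passed in 1 of the 6, again cluster 7, with 39.7 CPM in Eed iKO-D and 16.7 CPM in Ctrl-D cells (2.38-fold), or 1.33-fold relative to the median gene. Itga3 passed in 3 of the 6, and in 2 relative to the median gene.

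Depth per cell differed between libraries, so shares of cells with at least 1 UMI were taken after thinning each cell to 2000 UMIs. In cluster 5, 76.2% of 1666 Eed iKO-D cells had a Lama3 UMI (74.0 to 78.2) and 61.5% of 117 Ctrl-D cells (52.1 to 70.4). For Lamb3 the order was reversed, at 42.0% in Eed iKO-D (39.6 to 44.4) and 54.7% in Ctrl-D (45.2 to 63.9). In cluster 7, 46.2% of 861 Eed iKO-D cells and 24.1% of 108 Ctrl-D cells had a Lama3 UMI, while the Lamb3 shares of 14.6% in Eed iKO-D and 16.7% in Ctrl-D overlapped in their intervals. The lower Lamb3 CPM of cluster 7 thus came without a lower share of cells beyond counting error. As a gauge of free RNA at the same depth, 5.75% of 2331 Eed iKO-D and 1.29% of 232 Ctrl-D fibroblast-like cells had a Lama3 UMI, and 3.43% of these Eed iKO-D cells and 0% of these Ctrl-D cells (interval up to 1.58%) a Lamb3 UMI.

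Nearly every cell of cluster 5 had a UMI of at least 1 hemidesmosome gene at that depth, at 98.9% in Eed iKO-D and 99.1% in Ctrl-D. In cluster 7 it was 79.7% of Eed iKO-D cells and 47.2% of Ctrl-D cells. Fibroblast-like cells, which had Dst and Plec of their own, were at 73.8% in Eed iKO-D and 53.9% in Ctrl-D. Over the 54 pairs of a member and a shared cluster, the thinned share was higher in Eed iKO-D in 44, with intervals apart in 19, and lower with intervals apart in 1, Lamb3 in cluster 5. At 1000 UMIs it was higher in 43, with intervals apart in 10, and lower with intervals apart in 1. The same counts were not made over all genes, so these numbers cannot be set against genes at large. By CPM the median gene was itself higher by 0.84 on the log2 scale in cluster 7 and 0.40 in cluster 5, and differed by -0.05 in cluster 3.

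**Figure D4:**
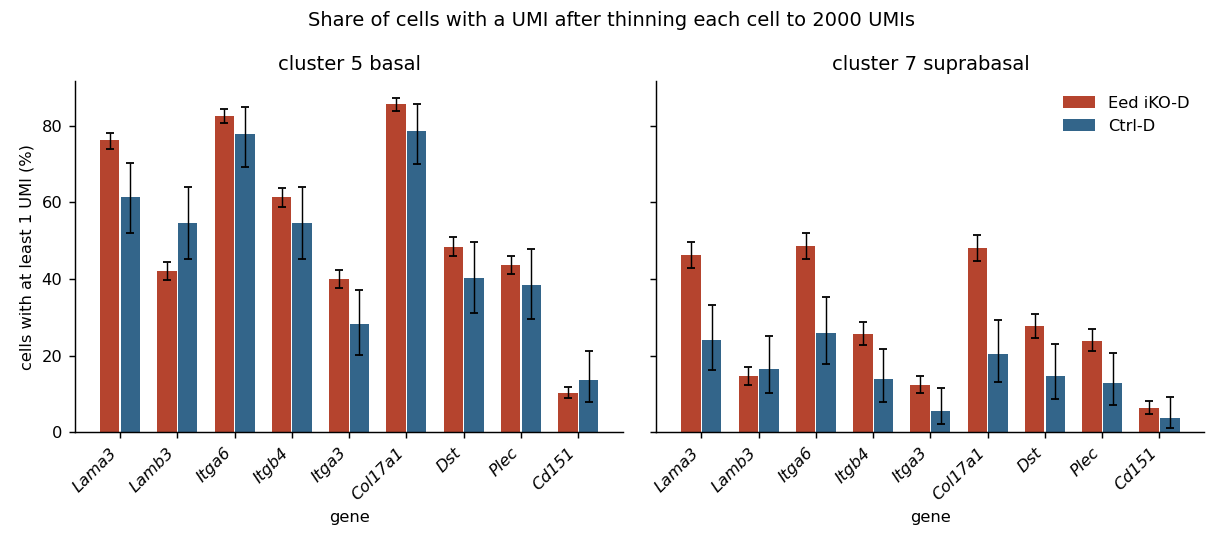
Share of cells with at least 1 UMI of each gene (y axis, percent) after thinning to 2000 UMIs per cell, in basal-like cluster 5 (left) and suprabasal-like cluster 7 (right), Eed iKO-D in red and Ctrl-D in blue, with 95% binomial intervals. In cluster 5 Lama3 is at 76.2% in Eed iKO-D and 61.5% in Ctrl-D, and Lamb3 at 42.0% in Eed iKO-D and 54.7% in Ctrl-D.

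A further 624 cells, all of the Ctrl-D library, formed an unnamed cluster led by Cck, with Krt14 at 5233 CPM. They carried hemidesmosome genes with little Lama3. Itga6 stood at 336 CPM, Plec at 223 CPM and Col17a1 at 249 CPM, beside 40.8 CPM of Lama3 and 70.7 CPM of Lamb3. Their Lamb3 level lay above the 56.1 CPM of Ctrl-D cluster 13 and the 47.5 CPM of Ctrl-D cluster 21. The cluster had 9.34 laminin UMIs per 100 hemidesmosome UMIs (8.78 to 9.94), below each of the 6 shared keratinocyte clusters of either library. The cornifying-like Ctrl-D cells of cluster 14 were lower still, at 6.69 (5.11 to 8.62). Its 57.7 Lama3 UMIs per 100 Lamb3 UMIs lay below the 130 to 592 of the shared keratinocyte clusters. By Y-linked and Xist UMIs, 294 of its cells carried Y-linked UMIs alone and 22 Xist alone. With this cluster counted as epithelial-like, an alternative chosen after seeing the data, 7 of the 9 members were still at least 1.5 times higher in Eed iKO-D. The share of all genes past that size was not taken there.

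Outside the epithelium, free keratinocyte RNA had to be gauged first. Krt14 in Eed iKO-D blood endothelial-like cells (444 cells) was 13.4% of its level in epithelial-like cells of that library. Lama3 (13.2%), Col17a1 (14.2%) and Itgb4 (16.5%) stood close to that figure, and Lamb3, at 35.3 CPM, was at 0.976 times the level that the Krt14 gauge gives. Itga6, at 430 CPM, stood at 45.8%, Itga3 at 49.5%, Plec at 99.6%, Cd151 at 191% and Dst at 246%. In the 19 Ctrl-D endothelial-like cells, too few to compare, Krt14 was at 0.873% of its epithelial level, no Lama3 or Lamb3 UMI was found, and Col17a1 stood at 1.12%. Itgb4 stood there at 63.7 CPM from 12 UMIs (interval 32.9 to 111), at 68.7 times the level that the Krt14 gauge gives, so its place near the gauge in Eed iKO-D was not seen in Ctrl-D. Cd151 (109 CPM, interval 102 to 117) and Dst (759 CPM, 739 to 780) had their highest levels of all groups of at least 50 cells in these cells.

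Melanocyte-like cells were compared in Ctrl-D alone (248 cells), where Krt14 was 2.19% of its epithelial level. Dst stood at 630 CPM and Cd151 at 73.7 CPM, 298% and 167% of their epithelial levels. Lama3 stood at 74.6 CPM (63.7 to 86.8), 50.8% of its epithelial level, beside 2.70 CPM of Lamb3, 4.04 CPM of Itgb4 and 1.80 CPM of Itga3. After thinning, 16.7% of 239 melanocyte-like cells had a Lama3 UMI (12.2 to 22.1) and 0 had a Lamb3 UMI, with an interval up to 1.53%. Lama3 UMIs without its partner chain were thus seen in these cells, above the free RNA gauge.

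Neutrophil-like cells showed the reverse. Lamb3 stood at 259 CPM in 1138 Eed iKO-D cells and 263 CPM in 138 Ctrl-D cells (interval 196 to 344), and Lama3 at 125 CPM in Eed iKO-D and 20.2 CPM in Ctrl-D. Gm42418 took 20.9% of UMIs of these cells in Eed iKO-D and 1.01% in Ctrl-D. Lamb3 was here at 4.07 times the level that the Krt14 gauge gives in Eed iKO-D and 21.6 times in Ctrl-D. G0s2, which encodes an inhibitor of fat breakdown and overlaps Lamb3 on the opposite strand, stood at 1976 CPM in Eed iKO-D and 3988 CPM in Ctrl-D, and Hsd11b1, also overlapping, at 354 CPM in Eed iKO-D and 242 CPM in Ctrl-D. Whether reads of those genes enter the Lamb3 count was not tested, and strand use in counting was not given in the sources used here. In Ctrl-D fibroblast-like cells, with 109 CPM of Hsd11b1 and 25.6 CPM of G0s2, Lamb3 stood at 1.30 CPM. T cell-like cells had 72.3 CPM of Lamb3 in Eed iKO-D and 52.4 CPM in Ctrl-D, with Hsd11b1 at 62.7 CPM in Eed iKO-D and 70.9 CPM in Ctrl-D.

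**Figure D5:**
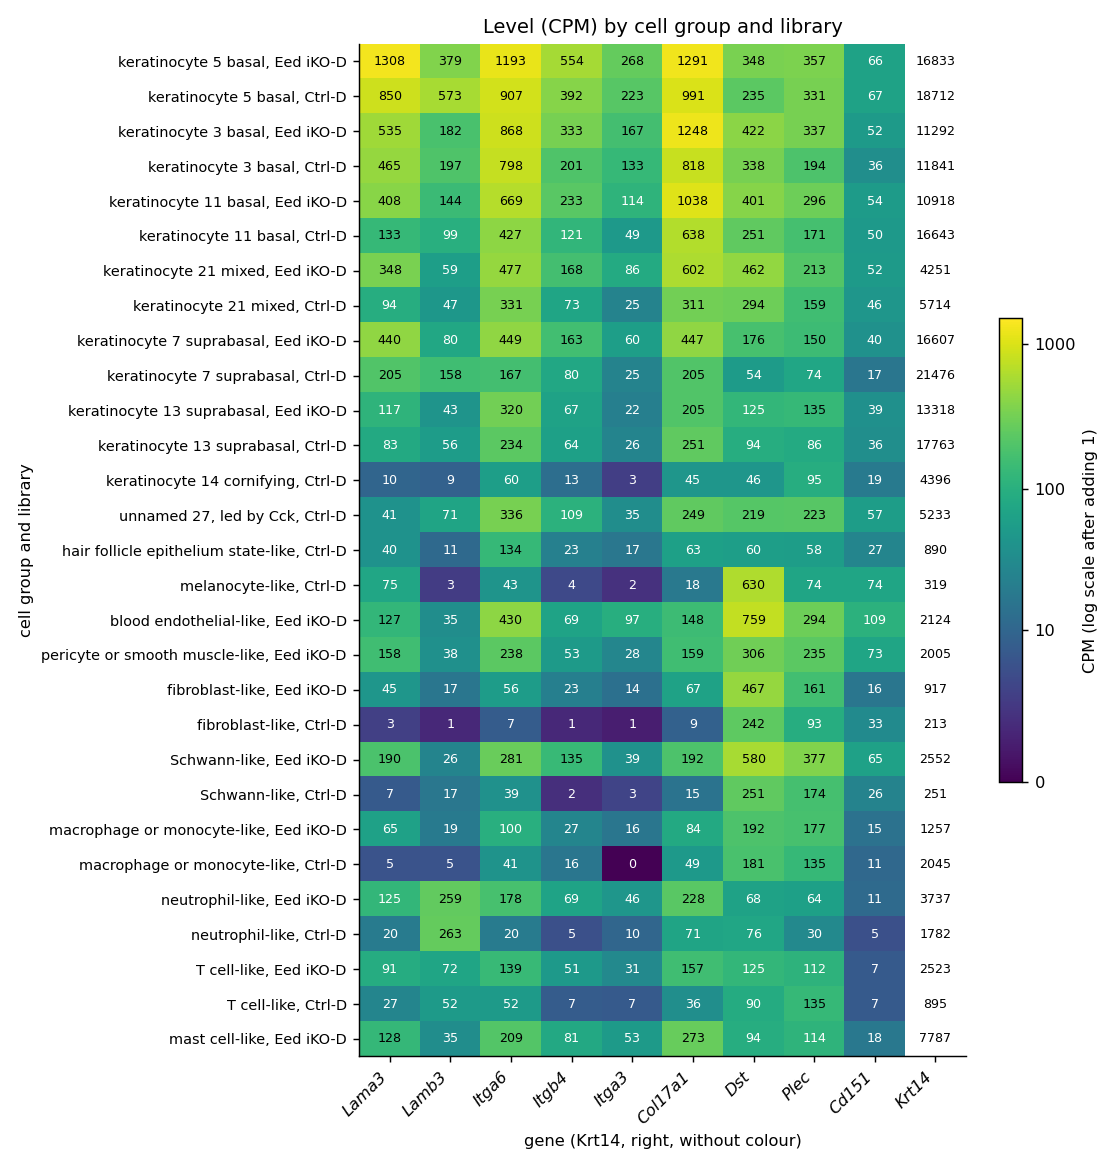
Level (CPM, printed and as colour on a log scale) of the 9 genes and Krt14 (x axis) in each cell group of at least 50 cells per library (y axis), Eed iKO-D above Ctrl-D. Krt14 is printed without colour; Lama3, Lamb3, Itgb4 and Col17a1 are highest in cluster 5, Dst reaches 759 CPM in endothelial-like cells and Lamb3 is 259 and 263 CPM in neutrophil-like cells of Eed iKO-D and Ctrl-D.

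Ratios between libraries outside the epithelium are given beside that of Krt14. Of the 9 members, those at least 1.5 times higher in Eed iKO-D were 9 in Schwann-like cells (24.9% of genes), 8 in fibroblast-like cells (31.5%), 7 in neutrophil-like cells (43.6%), 6 in macrophage or monocyte-like cells (39.1%) and 5 in T cell-like cells (17.9%). Krt14 itself was 10.2-fold higher in Eed iKO-D in the first of these, 4.30-fold in fibroblast-like, 2.10-fold in neutrophil-like and 2.82-fold in T cell-like cells, but 0.615-fold in the macrophage or monocyte-like class. The part of free keratinocyte RNA in these ratios was not tested. Some of the ratios counted rest on few UMIs, with intervals that include 1. Lamb3 had 12 UMIs in 59 Eed iKO-D and 10 in 96 Ctrl-D Schwann-like cells (interval 0.606 to 3.95). It had 2 UMIs in the 57 Ctrl-D macrophage or monocyte-like cells (0.936 to 28.3), where Itgb4 had 6 (0.734 to 4.42). Cd151 had 1 UMI in the Ctrl-D neutrophil-like cells (0.396 to 91.2), where Plec had 6 (0.958 to 5.77). In fibroblast-like cells, where Dst is well above the gauge, Dst stood at 467 CPM in Eed iKO-D and 242 CPM in Ctrl-D (1.93-fold). Plec stood there at 161 CPM in Eed iKO-D and 93.4 CPM in Ctrl-D (1.73-fold). Cd151 was the 1 member that was lower there, at 16.5 CPM in Eed iKO-D and 32.6 CPM in Ctrl-D (0.506-fold), where 19.8% of genes were at least 1.5 times lower.

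The rest of the adhesion machinery was taken from 7 gene lists over all epithelial-like cells, beside 42.1% of all measured genes at least 1.5 times higher, 15.6% lower and a median of 0.40 on the log2 scale. In all, 54 of the listed genes were higher, and 35 with each shared cluster given the same weight. With equal weights the share of all genes past that size was not taken. Of 8 other laminin chains, 5 were higher and 2 lower (median 0.87). Lamb1, the β1 chain, had the largest ratio, with 42.3 CPM in Eed iKO-D and 11.8 CPM in Ctrl-D (3.59-fold), then Lama1 (2.62-fold), while Lamb2 (0.614-fold) and Lama4 (0.529-fold) had the smallest. Within the 6 shared clusters Lamb1 was past 1.5 times higher in 2, Lama1 in 4, Lamb2 in 3 and Lama4 in 4, and Lama1 and Lamb2 were lower in 1 each. Of 20 other basement membrane zone genes, 14 were higher and 4 lower (median 0.95). Col4a4, a collagen IV chain, stood at 7.02 CPM in Eed iKO-D and 0.877 CPM in Ctrl-D, and Frem2 at 1.62 CPM in Eed iKO-D and 7.36 CPM in Ctrl-D (0.220-fold). Nid2, the other extreme upward, had only 50 UMIs in Eed iKO-D and 3 in Ctrl-D (10.7-fold, interval 3.46 to 53.7), and Egfl6 was at 0.497-fold. Frem2, low over the class, was higher in 3 of the 6 shared clusters and lower in 2, Egfl6 higher in 2 of the 4 where it was measured and lower in 1, Col4a4 higher in 2 of 3, and Nid2 higher in the 1 where it was measured.

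Of 11 other integrin subunits, 8 were higher and 1 lower (median 1.01). Itga5, a fibronectin receptor chain, stood at 50.8 CPM in Eed iKO-D and 12.4 CPM in Ctrl-D (4.10-fold). Itga9 had the highest ratio at 178 UMIs in Eed iKO-D and 11 in Ctrl-D (10.4-fold), and Itgb8 (0.765-fold) and Itga8 (0.633-fold) the lowest. In the shared clusters Itga5 was higher in 3 of 6 and Itga9 in 2 of 2, while Itgb8 was higher in 3 of 6 and lower in 1, and Itga8 higher in 3 of 5 and lower in 2. Of 17 focal adhesion genes, 11 were higher and 2 lower (median 0.76), led by Pxn (2.72-fold) and Actn1 (2.66-fold), with Tln2 (0.659-fold) and Tns1 (0.589-fold) last. Of the 6 shared clusters, Pxn was higher in 3, Actn1 in 2, Tln2 in 2 with 1 lower, and Tns1, low over the class, in 5.

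Of 16 desmosome and plakin genes, 8 were higher and 2 lower (median 0.66). The desmocollin Dsc2 stood at 168 CPM in Eed iKO-D and 21.5 CPM in Ctrl-D (7.83-fold) and was higher in 5 of 6 shared clusters, and Pkp2 was 4.14-fold higher (4 of 5 shared clusters higher and 1 lower). Dsg1a and Dsc1, cadherins of differentiated keratinocytes, were lower over the class, at 0.223-fold and 0.233-fold. Dsg1a was lower in 3 of 6 shared clusters and higher in 0, and Dsc1 lower in 2 of 4 and higher in 2. Of 9 other laminin receptors and tetraspanins, 3 were higher and 0 lower (median 0.33, below that of all genes). Cd44 stood at 1404 CPM in Eed iKO-D and 423 CPM in Ctrl-D (3.32-fold, past 1.5 times in 5 of 6 shared clusters) and Sdc1 was 2.07-fold higher (past 1.5 times in 2 of 6), while Sdc4 (0.806-fold) and Bcam (0.712-fold) were the lowest, with Sdc4 past 1.5 times in 0 of 6 shared clusters and Bcam higher in 1.

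Of 8 proteases that can cleave laminin or its partners, 5 were higher and 1 lower (median 0.97). Plau, the urokinase gene, stood at 106 CPM in Eed iKO-D and 21.8 CPM in Ctrl-D (4.85-fold, past 1.5 times in 4 of 6 shared clusters) and Tll1 was 3.25-fold higher (3 of 6 higher and 1 lower). Mmp2 (0.726-fold) and Mmp9 (0.607-fold) were the lowest. Mmp2 was nevertheless higher in 3 of 6 shared clusters, and Mmp9 was at least 1.5 times lower in 3 of the 5 shared clusters where it was measured.

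Over 39 library-by-cluster groups of at least 50 cells, the genes most like the summed laminin chains included Gm49890, Sh2d5, Cdcp1 and Slc2a1, with Pearson correlations of log2(CPM + 10) of 0.84, 0.83, 0.83 and 0.83 among 8442 candidates. Slc2a1 encodes the glucose transporter GLUT1, and Cdcp1 a transmembrane protein of epithelial cells. The genes most like the summed hemidesmosome parts were P3h2 (0.87), Mark3 (0.86), Camsap2 (0.86), Ephb4 (0.85) and Slco2a1 (0.85). P3h2 encodes a collagen prolyl 3-hydroxylase and Slco2a1 a prostaglandin transporter. The groups share libraries and depth, and these correlations are descriptions.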

How the data were processed

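Single-cell RNA-seq of dorsal skin tumours was deposited by the authors as UMI count matrices, 1 library per group, from the 10x Chromium 3′ kit version 2, per the labels' protocols. Cell Ranger is given as version 2.1.0 in the labels' protocols, 7.1.0 in the file headers and 8.0 in the submitters' processing notes, which name build mm10. The annotation and strand setting are not given in the sources used here. No other per-sample columns were present.

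Cells with at least 500 genes and at most 15% mitochondrial UMIs were kept. Scrublet (in scanpy 1.11.5) called 132 doublets in Ctrl-D, which were removed, and 0 in Eed iKO-D, so the caller failed in that library and its doublets remain. Cells were clustered together (1984 variable genes without the members and the listed companion genes, 30 components, 15 neighbours, Leiden resolution 1.0, leidenalg 0.10.2). Of 28 clusters, 10 stayed unnamed. Names came from listed markers, by score thresholds set after seeing the data. Of the unnamed clusters, 3 missed the score, 5 had over 10% Gm42418 UMIs with under 2 own markers among their 10 leading genes, 1 had Krt14 above 50% of the epithelial-like median, and 1 had more markers of another class than of its own among its leading genes. UMIs were summed per cluster and library. Ratios have exact conditional binomial intervals (scipy 1.17.1), and intervals cover counting error only. They were checked on simulated Poisson counts, which hold counting error alone. That check says nothing about spread between cells or animals. A gene counted as measured from 20 UMIs summed over the libraries and counted as higher or lower from 1.5 times.

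The members and lists were chosen with earlier results of these data known. Named genes are all members, the 2 highest and 2 lowest ratios of each companion list, and the 5 genes most like each summed set among those reaching 50 CPM; 1 gene that the last rule chose is not reported here. Alternatives covered cell filters, doublets, scaling, clustering, cluster weights, sex-marker subsets and thinning (2000 or 1000 UMIs).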

Additional observations from a re-analysis of the deposited data

How the results depend on the processing

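The count of members at least 1.5 times higher over epithelial-like cells was 7 and lay between 5 and 8 under all alternatives but 2: it was 4 with each shared cluster given the same weight and 4 without cluster 5. The ratio of Lamb3 turned to 0.785 with equal cluster weights. The laminin to hemidesmosome quotient of Eed iKO-D over Ctrl-D, 2.23, was 2.17 with the 8% highest doublet scores removed, 2.35 as a mean over cells, 2.32 at resolution 0.5, 2.15 at resolution 2.0, 2.32 with members kept among the clustering genes, 2.19 with cells assigned one by one, 1.98 in Xist-only and 3.02 in Y-linked-only cells, 2.33 with the Cck-led cluster, 1.87 without cluster 5 and 0.928 with equal cluster weights. The 25 member and cluster pairs that were higher became 12 under median-of-ratios scaling, and the Lamb3 ratio of cluster 7 became 1.02 in Xist-only cells. The 54 companion genes that were higher became 35 with equal cluster weights. Of the 10 genes chosen by likeness, 4 were also among the top 5 by Spearman correlation. The alternatives with the Cck-led cluster, without cluster 5 and in Xist-only cells within clusters were chosen after seeing the data. The causes of these changes were not tested. With equal cluster weights, without cluster 5 and with the Cck-led cluster, the share of all genes past 1.5 times was not taken. The thinned shares higher in Eed iKO-D with intervals apart numbered 19 at 2000 UMIs, 10 at 1000 and 35 without thinning, and the pairs at least 1.5 times lower were 2, 3 with median-of-ratios scaling and 4 relative to the median gene. For the thinned shares the same counts were not made over all genes. No paired analysis was possible because each group has 1 library. With 84 to 123 cells in the smaller side of several shared clusters, low members such as Cd151 carry wide counting intervals, and 1 library per group gives no spread between animals.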
